A study of Mus musculus with 20 samples.

Results

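The transcripts described here are those of hemoglobin and of Alas2, the erythroid heme synthesis enzyme, in whole kidneys of Balb/c mice. Every probe set was taken whose platform symbol was Alas2 or began with Hba- or Hbb-, which gave 16 probe sets for 10 of the 13319 genes named on the array. Of these, 12 probe sets matched a single gene and 4 were shared by several globin genes. The genes were picked because they were higher after doxorubicin in the females, so the female difference of these genes is given as a description, without a test, and the test is made in the males, which are other animals.

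Kidney RNA of 20 mice was measured, with 1 array a mouse and 5 mice in each of 4 groups. The study asked how male and female kidneys differ in health and in doxorubicin nephropathy, in which the drug injures the glomerular filter and protein enters the urine. The control males and control females were healthy mice of about 10 weeks. The doxorubicin males and doxorubicin females were injected intravenously with 12 mg/kg at about 10 weeks of age, and their kidneys were taken on day 14. Whether the kidneys were flushed of blood is not given in the sources used here, and no blood count was analysed here. Of the kidney markers, Kap, an androgen-dependent protein of the proximal tubule, lay between 15.77 and 16.19, and Umod, the uromodulin of the thick ascending limb, lay between 14.93 and 15.18. All values are log2 intensities, so a difference of 1 is a doubling of intensity.

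Adult hemoglobin is a tetramer of alpha and beta chains, each holding a heme. In the mouse Hba-a1 and Hba-a2 encode the same kind of adult alpha chain, and the adult beta chains come from a pair of genes whose names depend on the haplotype: Hbb-b1 and Hbb-b2 in strains such as BALB/c, Hbb-bs and Hbb-bt in strains such as C57BL/6J. Hba-x, Hbb-y and Hbb-bh1 are the embryonic chains. Alas2 makes the first intermediate of heme in developing red cells, while Alas1 does so in other tissues. Mature mouse red cells have no nucleus, and the young ones in blood, the reticulocytes, still carry globin and Alas2 RNA, so blood held in an organ adds these transcripts to its RNA.

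Promoters of Alas2 and of adult globin genes are shown because their probe sets moved together from kidney to kidney. RefSeq entries on GRCm38.p6 were found for 7 of the 10 genes looked up, and those of 4 genes are printed here over the 250 bases before the transcription start, 5′ to 3′ on the gene's strand. They lie at chr11:32283422-32283671 on the plus strand for Hba-a1, chr7:103827929-103828178 on the minus strand for Hbb-bs, chr7:103813924-103814173 on the minus strand for Hbb-bt, and chrX:150547167-150547416 on the plus strand for Alas2. Hbb-bs and Hbb-bt are the beta genes of the C57BL/6J haplotype, not that of Balb/c, and share a probe set with Hbb-b1 and Hbb-b2. Capitals mark, on either strand, the GATA motif AGATAA or its core GATAA, the CACCC core of the erythroid KLF1 motif CCACACCC, the CCAAT box, and the TATA box as ATAAAA or TATAAA.
Hba-a1: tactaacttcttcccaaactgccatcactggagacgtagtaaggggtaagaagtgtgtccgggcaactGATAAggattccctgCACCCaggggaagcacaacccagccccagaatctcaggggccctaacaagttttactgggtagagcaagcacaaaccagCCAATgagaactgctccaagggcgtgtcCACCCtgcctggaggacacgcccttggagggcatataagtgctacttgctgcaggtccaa
Hbb-bs: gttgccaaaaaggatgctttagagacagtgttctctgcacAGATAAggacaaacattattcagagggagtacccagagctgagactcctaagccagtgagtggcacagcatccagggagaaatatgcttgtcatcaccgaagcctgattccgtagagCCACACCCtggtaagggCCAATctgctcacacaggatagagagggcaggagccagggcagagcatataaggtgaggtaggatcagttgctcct
Hbb-bt: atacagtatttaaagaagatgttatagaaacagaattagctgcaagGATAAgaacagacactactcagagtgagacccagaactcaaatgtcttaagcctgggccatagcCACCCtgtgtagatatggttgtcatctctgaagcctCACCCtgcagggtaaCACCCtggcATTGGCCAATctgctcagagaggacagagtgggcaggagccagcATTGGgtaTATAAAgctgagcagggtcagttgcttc
Alas2: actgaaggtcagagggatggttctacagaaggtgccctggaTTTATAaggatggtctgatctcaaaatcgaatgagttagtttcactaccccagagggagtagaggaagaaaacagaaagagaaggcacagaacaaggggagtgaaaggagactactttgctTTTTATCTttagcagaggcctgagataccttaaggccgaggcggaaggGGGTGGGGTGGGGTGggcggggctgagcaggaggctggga

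The core GATAA stood once in each of the 4 promoters, on the plus strand in the 3 globin genes and on the minus strand in Alas2. Of all 32851 promoters of the same length, 22.6% held it, and 9.99% held the longer AGATAA, which was found in Hbb-bs and Alas2. CACCC was found in all 4, against 52.0% of all promoters, and the full CCACACCC in Hbb-bs alone of the 4, against 3.20%. The 3 CACCC matches of Alas2 lie on the minus strand, at 40, 35 and 30 bases before the start. CCAAT was present in the 3 globin promoters and in 33.8% of all promoters, and the TATA letters searched were present in Hbb-bt and Alas2 and in 22.8% of all. Some motifs overlap: each AGATAA holds a GATAA, CCACACCC holds a CACCC, and in Alas2 the TATA letters at 88 bases before the start share bases with the GATA motif at 86. The promoter of Hba-a2 matched that of Hba-a1 at 247 of 247 aligned bases with a shift of 3. Hba-x and Hbb-y have entries that are not printed. Hbb-b1, Hbb-b2 and Hbb-bh1 were looked up as well. A match is a description of the letters, not a measured binding site.

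Alas2 (probe set 1451675_a_at) varied most. Its intensity was 7.34, 7.49, 8.40, 7.35 and 4.89 in control females 10-1, 10-2, 30-6, No5 and 1. It was 11.75, 11.22, 12.14, 9.82 and 11.18 in doxorubicin females 3, 4, 5, 10-3 and 10-4. The lowest doxorubicin female lay above the highest control female, and control female 1 was the lowest of all 20 kidneys. The mean was 7.10 ± 1.31 (SD, n = 5) in control females and 11.22 ± 0.88 in doxorubicin females, a difference of 4.13, or 17.5-fold, which was the highest of all 22626 probe sets in that comparison and was used to choose the gene. Without control female 1 the difference was 3.57.

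In males the same probe set read 9.17, 7.76, 8.25, 8.90 and 7.21 in controls 30-1, 13, 30-2, 30-5 and 12. After doxorubicin it read 10.87, 12.18, 9.31, 10.34 and 7.40 in males 30-3, 30-4, 7, 9 and 11. All but male 11 lay above every control male, while male 11 lay among the lower controls. The mean was 8.26 ± 0.81 in control males and 10.02 ± 1.79 in doxorubicin males (SD, n = 5). The difference was 1.76 with a standard error of 0.78 and a 95% interval from 0.12 to 3.41, or 3.39-fold. It did not pass the threshold of 0.03 for males, with an adjusted p of 0.633 from limma over all probe sets (unadjusted p = 0.0371), and the exact two-sided permutation test over these 10 kidneys gave p = 0.0794, where 0.00794 is the smallest the design allows. It ranked 26 among all probe sets by size of the male difference. The difference was 1.22 without male 30-4 and 2.42 without male 11. In bulk RNA, more red cells in the organ and more RNA per red cell cannot be told apart.

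By group mean, Alas2 ran from control females to control males, doxorubicin males and doxorubicin females. Each neighbouring pair in that order overlapped. Control females were lower than control males by a mean of -1.16 (female minus male), and doxorubicin females were higher than doxorubicin males by 1.20. These sex differences share the female kidneys from which the genes were picked and are given without a test.

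**Figure D1:**
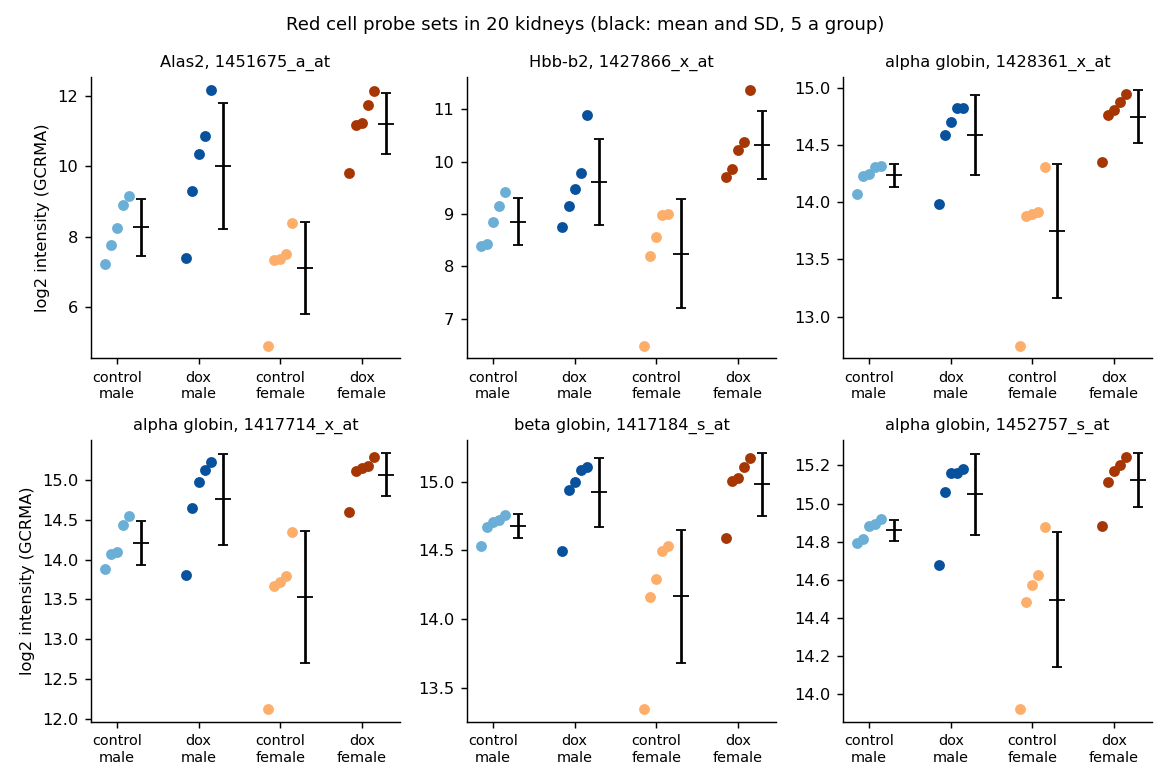
Log2 intensity (vertical axes, which do not start at 0 and differ between panels) of the 6 red cell probe sets with a mean above 8, by group. Points are single kidneys and the black mark is the mean with SD of 5 kidneys. In females the doxorubicin and control kidneys do not overlap in any of the 6 panels, and in males they overlap in each.

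The alpha chains were read by 3 probe sets that match both Hba-a1 and Hba-a2. The widest of them, 1417714_x_at, read 12.12, 13.71, 13.79, 14.34 and 13.67 in control females 1, 10-1, 10-2, 30-6 and No5, and 15.18, 15.14, 15.29, 14.59 and 15.12 in doxorubicin females 3, 4, 5, 10-3 and 10-4. In control males 30-1, 13, 30-2, 30-5 and 12 it read 14.54, 14.10, 14.07, 14.43 and 13.89, and in doxorubicin males 30-3, 30-4, 7, 9 and 11 it read 15.12, 15.23, 14.64, 14.98 and 13.80. The female groups were apart, as for Alas2. Doxorubicin male 11 lay below every control male, where its Alas2 had lain among the lower controls. The female difference was 1.54. The male difference was 0.55 (SE 0.33, limma adjusted p = 0.723), with a 95% interval from -0.16 to 1.26.

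The other alpha probe sets showed the same order with smaller differences. For 1428361_x_at the group means were 13.75 ± 0.59 in control females, 14.75 ± 0.23 in doxorubicin females, 14.23 ± 0.10 in control males and 14.59 ± 0.35 in doxorubicin males (SD, n = 5). For 1452757_s_at they were 14.50 ± 0.35, 15.12 ± 0.14, 14.86 ± 0.05 and 15.05 ± 0.21 in the same order. Their differences in females were 1.00 and 0.63, and in males 0.35 and 0.19, both at a limma adjusted p of 0.723. The highest value in the whole table was 16.19. Whether the upper end of the scale narrows differences in these bright probe sets was not tested.

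Of the beta chains, probe set 1417184_s_at matches Hbb-b1, Hbb-b2, Hbb-bs and Hbb-bt together. It read 13.34, 14.16, 14.30, 14.53 and 14.50 in control females 1, 10-1, 10-2, 30-6 and No5, and 15.03, 15.01, 15.17, 14.59 and 15.11 in doxorubicin females 3, 4, 5, 10-3 and 10-4. The female groups did not overlap, but the gap between doxorubicin female 10-3 at 14.59 and control female 30-6 at 14.53 was narrow. Its mean was 14.68 ± 0.09 in control males and 14.93 ± 0.25 in doxorubicin males (SD, n = 5). The difference was 0.81 in females and 0.25 in males, where the limma adjusted p was 0.723.

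For Hbb-b2, the minor adult beta chain, 2 probe sets are assigned to it alone, and they disagreed. The suffix x_at, carried by the brighter of them and by the alpha probe sets 1417714_x_at and 1428361_x_at, marks probes that can also bind related transcripts. In 1427866_x_at the control females ran from 6.48 in female 1 to 8.99 in female 10-1, and the doxorubicin females from 9.71 in female 3 to 11.37 in female 5. In males the controls ran from 8.38 to 9.42 and the doxorubicin kidneys from 8.75 in male 11 to 10.89 in male 30-4. The differences were 2.07 in females and 0.76 in males (SE 0.48, limma adjusted p = 0.723), or 0.44 without male 30-4. The other, 1427865_at, read between 3.43 and 4.95 over all 20 kidneys, with differences of -0.42 in females and -0.29 in males. It was the only one of the 16 that had a lower mean after doxorubicin in females, and the lowest value belonged to doxorubicin female 4.

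The embryonic chains were at the bottom of the scale. The level that 95% of the female readings of 12 Y-linked probe sets stayed under, 2.75, was taken as background. The single probe set of Hba-x lay between 2.18 and 2.22, and the 3 of Hbb-y between 2.27 and 2.72. Of the 3 probe sets of Hbb-bh1, 1437810_a_at lay above background, at 3.22 to 3.31 in every kidney, and the others lay below it. The probe sets that match only Hba-a1 (1453574_at) or only Hba-a2 (1427219_at) read at most 2.27 and 2.38, so the adult alpha chains were seen through the shared probe sets alone. Of the 16 probe sets, 8 were above background in every kidney and 8 in none.

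None of the 16 was called in males at an adjusted p under 0.03, where 0.053% of all 22626 probe sets were called. At an unadjusted p under 0.05 in males, 2 of the 16 passed, Alas2 and the dim 1427219_at of Hba-a2, which was lower, against 7.53% of all probe sets. Doxorubicin and control kidneys did not overlap for 6 of 16 in females, all 6 higher after doxorubicin, where 0.605% of all probe sets were higher without overlap, and this count follows from how the genes were chosen. They overlapped for all 16 in males, where 1.4% of all probe sets did not overlap. The median difference over the 16 was 0.013 in females and -0.011 in males, against 0.0038 and -0.011 over all probe sets. The 16 include the probe sets under background in every kidney. Over the 6 with a mean above 8, a set picked after values were seen, the median was 0.45 in males. In females, on which the genes were chosen, it was 1.27.

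**Figure D2:**
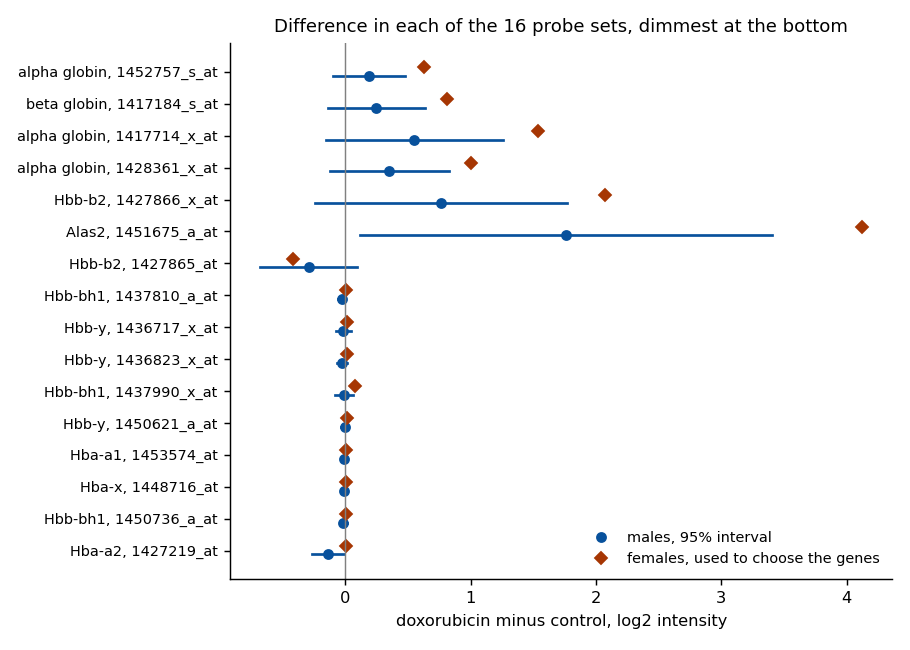
Doxorubicin minus control, in log2 intensity, for each of the 16 probe sets, ordered by mean level with the dimmest at the bottom. Circles are males with the 95% interval of the limma fit, and diamonds are females, without an interval because the genes were chosen on that difference. Alas2 has the highest difference in both sexes, 4.13 in females and 1.76 in males, and the embryonic chains lie near 0.

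The numbers of some mice carry a prefix, 30- or 10-, and others carry none. Within mice of the same prefix, few in each group, Alas2 was higher after doxorubicin. In females the difference was 3.08 for prefix 10- and 5.58 without a prefix, where the direction follows from how the genes were chosen. The 5.58 rests on control females 1 and No5, at 4.89 and 7.35. In males the difference was 2.75 for prefix 30- and 1.53 without a prefix. For 1417714_x_at the differences were 1.10 and 2.30 in those females and 0.83 and 0.48 in those males. What the prefix stands for is not given in the sources used here.

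The members moved together from kidney to kidney inside the groups. Group means were subtracted, and the brightest probe set stood for each chain. Over 20 kidneys, alpha globin (1452757_s_at) and beta globin (1417184_s_at) had a Pearson r of 0.956 (Spearman's rho 0.914, adjusted permutation p = 0.00018 and 0.00012). Alas2 had an r of 0.845 with alpha globin (rho 0.789, adjusted permutation p = 0.00027 and 0.00026) and of 0.812 with beta globin (rho 0.779, adjusted permutation p = 0.00036 and 0.00026). The p-values are two-sided, from 100000 permutations within groups, adjusted over 6 relations. Without the 2 kidneys farthest out, doxorubicin male 11 and control female 1, r was 0.875, 0.702 and 0.661 for the 3 pairs. The probe sets share each kidney's RNA and array. The other 3 relations were with the excess of the 3′ over the 5′ probe set of Gapdh, a sign of RNA breakage, and gave r of -0.01 for alpha globin, -0.05 for beta globin and 0.16 for Alas2 (adjusted permutation p = 0.977, 0.977 and 0.815, with rho of -0.18, -0.16 and 0.14 at an adjusted permutation p of 0.567). Without the same 2 kidneys those r were -0.36, -0.42 and 0.01.

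**Figure D3:**
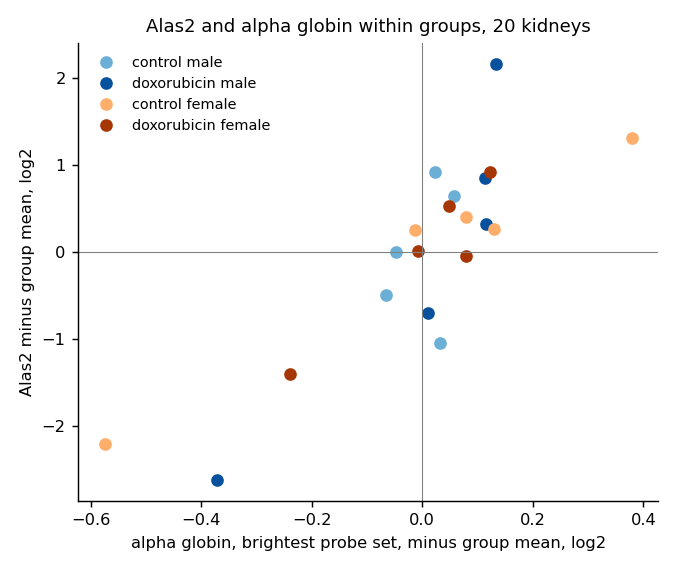
Each point is a kidney, with its alpha globin level (1452757_s_at) minus its group's mean on the horizontal axis and its Alas2 level minus its group's mean on the vertical axis, both in log2 intensity and coloured by group. The points run from low to high together, with r = 0.845 over 20 kidneys, and doxorubicin male 11 and control female 1 lie farthest to the lower left.

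A few kidneys held the extremes. Control female 1 was the lowest of all 20 in 10 of the 16 probe sets, the embryonic Hba-x among them, and in 8.32% of all probe sets. Doxorubicin female 5 was the highest in 9 of the 16 and in 4.32% of all. Both counts follow in part from how the genes were chosen, and both include probe sets under background in every kidney. The median level was 6.07 and 6.02 on these arrays, within the range of 5.96 to 6.11 over the 20.

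A list of 62 other genes of red cell life was also examined, covering heme synthesis, membrane and skeleton, cytoplasm and maturation, and erythroid transcription factors. It was drawn up from textbook knowledge, with earlier results of these data known. Of these, 54 had a probe set of their own and 34 had a mean above background, Ube2l6 only through its doxorubicin kidneys. None was called in females at an adjusted p under 0.04 (0.0398% of all probe sets were), in males at 0.03, or in the difference between the sexes' responses, where 0.00442% of all probe sets were called at an adjusted p under 0.05. At an unadjusted p under 0.05, 8 passed in females, 7 of them higher after doxorubicin (4.73% of all probe sets passed and 2.2% were higher), 7 in males, 5 of them higher (3.8% of all were higher), and 1 in the difference of responses, where 6.33% of all did. Their median difference was 0.04 in females and 0.01 in males.

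Of 11 heme synthesis genes, all above background, 2 passed at the unadjusted 0.05 in females, both higher (4.73% of all probe sets passed), and 2 others in males, both lower (7.53% of all passed). Of the 11, 6 had a higher mean after doxorubicin in females and 5 in males, against 59.2% and 38.4% of all probe sets. Their median difference was 0.06 in females and -0.02 in males. The brightest were Alad, which joins the product of the Alas enzymes into a ring, Fech, which inserts the iron, and Alas1. Alad differed by 0.06 in each sex. Fech read 11.31 to 11.58 in control females and 11.59 to 12.49 in doxorubicin females, a difference of 0.68 (SE 0.17, limma adjusted p = 0.198), and 0.25 in males (adjusted p = 0.723). Alas1, the housekeeping counterpart of Alas2, differed by -0.05 in females and by -0.51 in males (adjusted p = 0.551). Slc25a37, the mitoferrin that carries iron into the mitochondria of developing red cells, was singled out after its values were seen. It read 8.43 to 9.26 in control females and 10.14 to 11.56 in doxorubicin females. Its difference was 2.10 in females (SE 0.43, limma adjusted p = 0.100) and 0.88 in males (adjusted p = 0.679). Without doxorubicin male 30-4 the male difference was 0.43 for Slc25a37 and 0.08 for Fech.

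Of 16 cytoplasm and maturation genes, 13 had a mean above background. At the unadjusted 0.05, 6 passed in females, where 4.73% of all probe sets did, and all but Hagh were higher. In males 3 passed, all higher, where 7.53% of all did. The brightest differed little: Prdx2, an antioxidant enzyme of red cells and other tissues, by 0.08 in females and 0.01 in males, Hagh, a glyoxalase, by -0.20 and 0.06, and the nuclear exporter Xpo7 by 0.08 and 0.01. Tent5c, a poly(A) polymerase, was among the genes whose pattern was most like the globins. It read 6.65, 8.47, 8.09, 8.12 and 7.44 in control females 1, 10-1, 10-2, 30-6 and No5 and 11.20, 10.69, 11.32, 9.93 and 10.65 in doxorubicin females 3, 4, 5, 10-3 and 10-4. In doxorubicin males 30-3, 30-4, 7, 9 and 11 it read 10.04, 11.87, 8.51, 9.34 and 7.44, and in the control males 7.19 to 8.62. The female groups were apart, and doxorubicin male 11 again lay among the controls. The difference was 3.00 in females (SE 0.61, limma adjusted p = 0.100) and 1.61 in males (SE 0.61, adjusted p = 0.513). Singled out after their values were seen were Bpgm, which makes the bisphosphoglycerate that lowers oxygen affinity, with 1.18 in females and 0.62 in males (limma adjusted p = 0.221 and 0.666), and Isg20, an exonuclease, with 2.21 and 1.41 (adjusted p = 0.297 and 0.610). Without doxorubicin male 30-4 the male differences were 1.00 for Tent5c, 0.33 for Bpgm and 0.68 for Isg20. Ube2l6, a ubiquitin-like conjugating enzyme, lay at 2.67 to 2.73 in all controls of both sexes, under background, so no difference is given. It read 3.41 to 5.61 in the doxorubicin females and 2.67 to 6.14 in the doxorubicin males.

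Of 17 membrane and skeleton genes, 6 were above background and none passed at the unadjusted 0.05 in either sex. Over all probe sets 4.73% passed in females and 7.53% in males. The brightest were Slc4a1, the band 3 anion exchanger of red cells and of intercalated cells of the collecting duct, Dmtn, which bundles actin in the red cell skeleton, and Tmod1, which caps its actin filaments. Slc4a1 differed by 0.81 in females and 0.78 in males (SE 0.41, limma adjusted p = 0.706), Dmtn by -0.20 and 0.01, and Tmod1 by 0.18 and -0.14. Without doxorubicin male 30-4, which read 11.48 where the other doxorubicin males read 9.29 to 9.74, the male difference of Slc4a1 was 0.37. Ank1, Sptb, Rhag and Kel, red cell membrane genes, had means of 2.36, 2.58, 2.23 and 1.73, all under background.

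Of 10 erythroid transcription factors, 4 were above background. Lmo2, a bridging subunit, differed by 0.26 in females and 0.74 in males (SE 0.23, limma adjusted p = 0.379), Zfpm1, the partner of GATA factors, by 0.12 and 0.57 (SE 0.18, adjusted p = 0.380), and Ldb1, which Lmo2 binds, by 0.18 and -0.01. Endothelial cells also express Lmo2. Gata1 and Klf1, which switch on the globin genes in erythroid precursors, had means of 2.20 and 2.58 and were above background in none of the 20 kidneys, and neither were Tal1 and Nfe2. Alas2 and the shared adult globin probe sets were above background in every kidney.

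**Figure D4:**
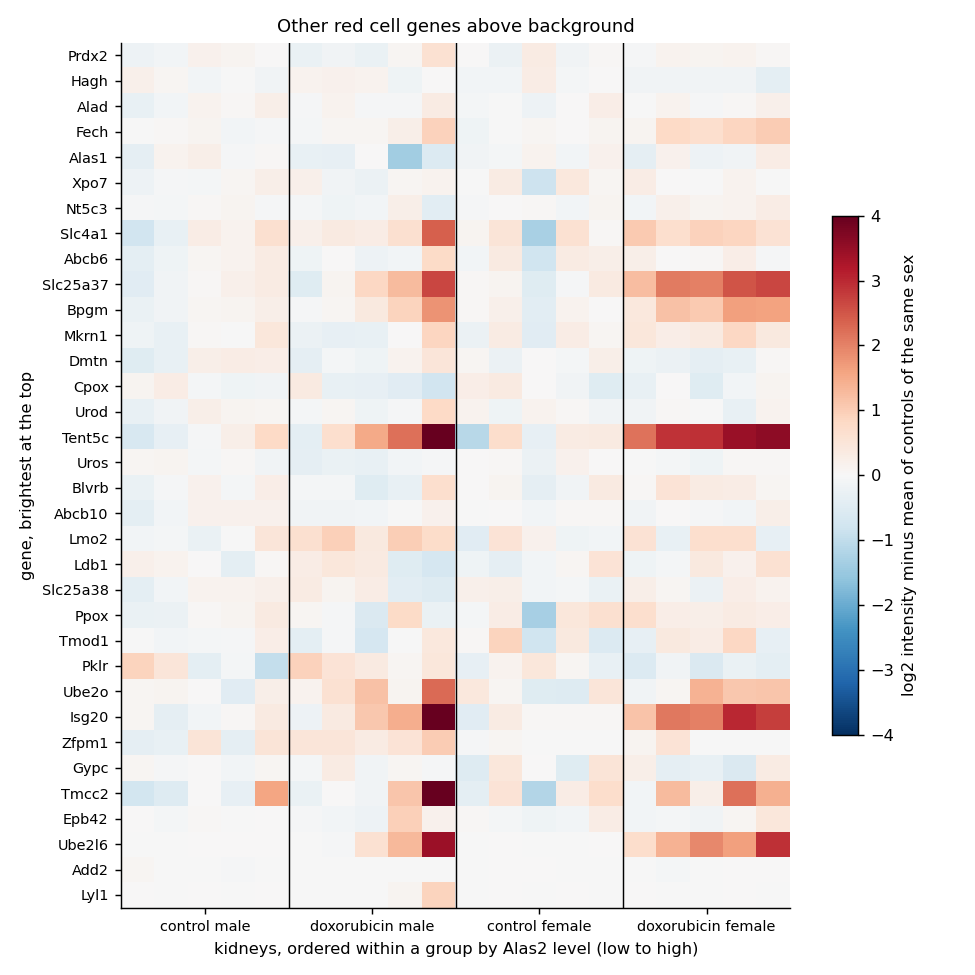
Log2 intensity minus the mean of the controls of the same sex (colour, from -4 in blue to 4 in red, with values beyond shown at the end colour) for the 34 other red cell genes above background (rows, brightest at the top) in 20 kidneys (columns), ordered within each group by Alas2 level. Tent5c, Slc25a37, Isg20 and Bpgm darken from left to right within the doxorubicin males, where male 30-4 is the last column. Ube2l6, lower in the map, had all its controls under background.

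Likeness to the globins was measured without the group differences, as the r over 20 kidneys between a probe set's deviations from its group means and the mean deviation of the adult globin probe sets. These were all the probe sets of Hba-a and Hbb-b genes. They include the dim 1427865_at, and 1453574_at and 1427219_at, which were under background in every kidney. Of 12187 probe sets with 1 gene and a mean above 4, the 10 most alike were those of Abhd14b, Cdk18, Sptan1, Qars, Btrc, Ctsb, Adi1, Tent5c, Mpg and Rab3a, with r from 0.78 down to 0.71. The median r was 0.02 and the 99th percentile 0.56. This order depended on the measure and on control female 1. By Spearman's rho, 2 of the 10 stayed among the first 10, and without control female 1 again 2 did. Of the red cell lists, Tent5c alone was among the first 10 by r. By rho these were Tent5c, Abcb10 and Slc25a37, and without control female 1 Slc25a37 alone. Against Alas2 instead of the globins and without control female 1, Slc25a37 and Tent5c came first, with r of 0.94 and 0.93. Mkrn1, Ctsb, Gak, Creb3, Ndufc1, Cers5, Bpgm and Phpt1 followed, in that order, down to 0.86. Of these 10, Slc25a37, Tent5c, Mkrn1 and Bpgm are in the red cell lists, and the others are not. Whether that exceeds the share of these lists among all 12187 probe sets was not tested. The probe set of Mkrn1 was not its brightest, which had 0.59. Over the whole heme list in that same measure r ran from -0.65 for Cpox to 0.94, with 0.75 for Fech, and Slc4a1 had 0.55. Over the kidney markers it ran from -0.44 for Kap to 0.77 for Cdh16, with 0.69 for Slc34a1. High values in this measure were thus not limited to red cell genes. These values are descriptions, and the settings other than the first were chosen after the data were seen, except for rho.

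Further lists bear on where the kidneys stood. Of 18 genes of erythropoietin signalling and hypoxia, none was called in either sex. Over all probe sets 0.0398% were called in females and 0.053% in males. The brightest of the 18 were the stress gene Ndrg1, the mitophagy gene Bnip3 and the glucose carrier Slc2a1. They differed by -0.20, 0.22 and 0.23 in females and by 0.23, -0.01 and 0.48 in males. Of 24 genes of iron and heme handling, 1 was called, in males, against 0.053% of all probe sets. Cp, the plasma ferroxidase ceruloplasmin, rose in males by 1.74 (SE 0.29, limma adjusted p = 0.028), while its difference in females was 0.54. The ferritin heavy chain Fth1 differed by -0.01 and 0.02, and Lrp2 and Cubn, the tubular receptors that take up filtered proteins such as hemoglobin, by -0.07 and 0.03 in females and -0.24 and 0.18 in males. None of 11 cell cycle genes was called, where 0.0398% of all probe sets were in females and 0.053% in males. With those under background included, 11 of 11 had a higher mean after doxorubicin in females and 10 in males. Over all probe sets 59.2% and 38.4% did. Among the 5 genes with a mean above background, Tk1 differed by 0.76 and 0.08 and Rrm2 by 1.19 and 1.08 in females and males. Mki67 was above background in 6 kidneys only and under it in every control female, so no difference is given for Mki67. It read 2.45 to 2.71 in control females and 2.58 to 4.65 in doxorubicin females. In males it read 2.45 to 3.11 in controls and 2.43 to 5.09 after doxorubicin.

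Markers of other blood cells were set beside these levels. Of 8 platelet genes, 2 were above background. The summed level of all 8, those under background included, was 5.40 to 6.17 in control females and 6.16 to 7.36 in doxorubicin females. It was 6.00 to 6.55 in control males and 5.86 to 7.57 in doxorubicin males. Pf4, a platelet chemokine, was lowest in control female 1, at 3.79, and highest in doxorubicin female 3, at 6.98, then in doxorubicin male 30-4, at 6.91. The other gene above background, Itga2b, was also lowest in control female 1, at 2.74, but highest in control male 13, at 3.34. Pf4 differed by 1.20 in females and 0.20 in males, and Itga2b by 0.11 and -0.10. Of the 8, 6 had a higher mean after doxorubicin in females and 2 in males, against 59.2% and 38.4% of all probe sets. Of 10 neutrophil genes 3 were above background. The summed level of all 10, those under background included, was 5.71 to 5.78 in control males and 5.74 to 6.86 in doxorubicin males. It was 5.73 to 5.78 in control females and 5.94 to 12.18 in doxorubicin females. The upper end was doxorubicin female 10-3, with S100a8 at 10.78 and S100a9 at 11.14, where the next highest kidneys had 6.06 and 5.91. That kidney had the lowest Alas2 of its group and the highest Ptprc, the pan-leukocyte CD45, at 9.90, against 8.47 in the next. Of 5 T cell genes none was above background on average.

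Of 10 monocyte and macrophage genes 8 were above background, and 5 passed at the unadjusted 0.05 in males, all higher, against 3.8% of all probe sets. None passed in females, where 4.73% of all did. The summed level of all 10 was 11.07 to 11.97 in control males and 11.30 to 13.01 in doxorubicin males. It was 12.06 to 12.40 in control females and 12.16 to 13.23 in doxorubicin females. The brightest were Csf1r, the receptor for a macrophage growth factor, Lyz2, lysozyme, and C1qb, a complement subunit, with male differences of 0.14, 1.35 and 1.05 (limma adjusted p = 0.847, 0.605 and 0.608). Lyz2 ran from 7.55 to 8.47 in control males and from 8.47 to 10.77 in doxorubicin males. The control and doxorubicin males did not overlap in Lyz2, by a narrow gap. Of 5 B cell genes 2 were above background. The summed level of all 5 ran from 9.57 to 11.99 in control males and 9.27 to 12.38 in doxorubicin males. It ran from 5.84 to 9.45 in control females and 6.08 to 13.00 in doxorubicin females. The 5 pan-leukocyte genes summed to 8.04 to 9.37, 8.40 to 10.38, 8.35 to 9.51 and 8.47 to 11.32 in the same order, overlapping in both sexes. None of these blood cell genes was called in either sex (0.0398% of all probe sets were in females and 0.053% in males). Their part in the globin differences was not tested.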

How the data were processed

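Total kidney RNA of 20 mice was hybridised to 1 Affymetrix array each. The authors deposited the intensity values after GCRMA, which adjusts background, quantile normalizes between arrays and summarises each probe set, on a linear scale; no version is given in the sources used here. Values were converted to log2. Of 22690 probe sets, 64 array controls were left out and 22626 tested. Symbols were updated through Entrez IDs.

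The 4 groups were fitted in 1 model with limma 3.58.1 (R 4.3.3; 16 residual degrees of freedom, prior 0.780), and p-values were adjusted by Benjamini and Hochberg's method across every tested probe set, with the study's thresholds of 0.03 for males and 0.04 for females, and 0.05 for the interaction. The fit was tested on simulated data. Single values in males were compared by exact permutation.

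The members and lists were chosen with earlier results of these data known. All member probe sets were named, and for each list the genes called (at most 6) and the 3 brightest of the rest, a gene standing by its brightest probe set. The 6 probe sets with a mean above 8, the omission of cross-hybridising Y-linked probe sets from the background and the core GATAA were chosen after values were seen. Samples were grouped by the labels. Replicates were separate mice; array number limits precision. Alternatives were other scalings, filters, weights, a block for number prefix, the methods' t-test and leaving out kidneys.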

Additional observations from a re-analysis of the deposited data

Results flagged for a closer look

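Within each group of 5, the gap of the lowest or highest kidney to its nearest neighbour was divided by the group's range for the 7 member probe sets with a mean above 4, and 8 of 28 groups exceeded the limit of 0.71. Chance flags about 1 in 20 such groups, and the probe sets are not independent, since several read the same transcripts. Doxorubicin male 11 stood below its group in the beta globin probe set 1417184_s_at at 14.49 (gap 0.722 of the range) and in the alpha globin probe sets 1428361_x_at at 13.99 and 1452757_s_at at 14.68. Doxorubicin female 10-3 stood below hers in 1417184_s_at at 14.59 and in alpha globin 1417714_x_at at 14.59. Control female 1 stood below hers in 1428361_x_at at 12.75. The dim Hbb-b2 probe set 1427865_at was lowest in doxorubicin male 30-4, at 3.61, and in doxorubicin female 4, at 3.43.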

How the results depend on the processing

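Each count was recomputed under 32 alternatives. No member was called in males under any of them. In females, where the count only describes how the genes were chosen, 0 of 16 became 6 with array weights, 6 with the number prefix as a block, 6 with the methods' t-test at an unadjusted p under 0.01 and 1 when only the upper 60% of probe sets were tested, and ran from 0 to 1 when single kidneys were left out, with 1 without doxorubicin male 30-4 and 1 without doxorubicin male 11. For the other red cell genes in females, 0 became 6 with array weights, 3 with the block, 6 with the t-test and 3 without doxorubicin male 30-4 and control female No5 together, an alternative added after the data were seen, and ran from 0 to 5 without single kidneys, with 5 without doxorubicin male 30-4. In males 0 became 1 with the t-test, where 286 of all 22626 probe sets were called. Over all probe sets, female calls rose from 9 to 138 with array weights, 231 with the block and 346 with the t-test. They were 32 without doxorubicin male 30-4, 9 without doxorubicin male 11 and 20 without doxorubicin male 30-4 and control female No5 together. Of the upper 60% of probe sets, 21 of 13576 were called in females. The cause of these changes was not tested. The differences of the 6 bright probe sets kept their direction throughout. Alas2 stayed at 3.57 to 4.49 in females and 1.04 to 2.42 in males. The relations between members kept theirs too, with r between 0.775 and 0.971 over 21 alternatives. These do not include leaving out doxorubicin male 11 and control female 1 together. That lowered r to 0.875 for alpha with beta globin, 0.702 for alpha globin with Alas2 and 0.661 for beta globin with Alas2. No paired analysis was possible because the groups compared share at most 1 mouse number. Groups of 5, and whole-organ RNA in which most erythroid factors lie under background, limit what could be seen.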
